A study of Mus musculus with 36 samples.

Results

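The translation initiation and elongation factor genes are described here as the genes whose array symbols begin with Eif1 to Eif6 or with Eef1 or Eef2. There were 44 such genes, measured by 66 of the 20355 probe rows, out of 9930 genes with a single symbol. Genes were taken by symbol alone, although the set was chosen with earlier results of these data known. It therefore also holds regulators and modifying enzymes of the factors. These are the kinase Eif2ak2, the cap-complex inhibitors Eif4ebp1 and Eif4ebp3, and the methyltransferases Eef1akmt1 and Eef1aknmt. Of the 44 genes, 30 had 1 probe and 14 had 2 or more, up to 5, and the probes of a gene were averaged.

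The RNA came from NIH3T3 cells, an established mouse embryonic fibroblast line, that carried an Erbb2 transgene under tet-off control, in which tetracycline stops transcription of the transgene. Erbb2 is a receptor tyrosine kinase that signals through the ERK and the AKT and mTOR pathways. Cells had been exposed to tetracycline for 1, 2, 4, 12 or 24 h or for 3, 5 or 7 days, or were untreated, with 4 arrays per group. Every array compared a sample in channel 1 with untreated Erbb2 cells in channel 2, and channel 1 was in Cy5 on replicates 1 and 2 and in Cy3 on replicates 3 and 4. All groups, the untreated one included, therefore carried the transgene. Parts of the labels' protocols speak instead of organs and of a reference from control animals, and the design text names different untreated lines as the control, so the reference is not fully settled. The labels do not say whether replicates were separate cultures, so the p-values measure only the spread between these arrays, which may be technical. The level of Erbb2 itself was not analysed here, and ratios carry no levels, so neither the shut-down of the transgene nor the fibroblast identity could be checked.

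Protein synthesis starts when the eIF4F complex, made of the cap-binding protein eIF4E, the helicase eIF4A and the scaffold eIF4G, recruits a ribosomal subunit to the capped end of an mRNA. The eIF2 ternary complex brings the initiator tRNA, the many-subunit eIF3 holds the pieces together, and eIF1, eIF1A and eIF5 govern recognition of the start codon. In elongation, eEF1A carries each aminoacyl-tRNA to the ribosome, the eEF1B subunits recharge it with GTP, eEF2 moves the ribosome along, and eIF5A relieves stalled ribosomes. Growth factor receptors act on this machinery through mTOR and ERK signalling, and mTOR controls in particular the translation of mRNAs that begin with a terminal oligopyrimidine tract, among them those of several elongation factors and eIF3 subunits.

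Values are log2 ratios of channel 1 over channel 2 after each array was centred on its median, and the Cy3 arrays were multiplied by -1. A value above 0 then stands for more RNA in channel 1, but this direction was assumed and is not settled by the files. Untreated replicates 1 and 2 held the same 19840 values apart from an offset of 0.771, so they entered as 1 array, which left 35 arrays. The values of 5 and 7 days had slid against the probe rows and were moved back. Arrays carry no read depth, and their number limits the precision. The arrays of 3 to 7 days were wider than the others, with an interquartile range over all genes of 0.658 to 1.29 log2 units, against 0.334 to 0.49 from 1 to 24 h and 0.485 to 0.689 in the untreated arrays. Over the translation factor genes it was 0.328 to 0.886 late and 0.21 to 0.51 early. Dye moved many values: within a group, arrays of the same dye correlated across the translation factor genes at a mean r of 0.143 to 0.714, and arrays of opposite dye at -0.46 to 0.33, over genes that share the array and its probes. Across genes, the untreated arrays of opposite dye correlated at -0.46 over the translation factor genes and at -0.404 over all genes once turned.

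Tests used limma on all 35 arrays, fitting group means and the dye for each gene, and a gene was called at a Benjamini-Hochberg adjusted p under 0.05 over all genes tested. The 8 comparisons with untreated cells share the same 3 untreated arrays. A further contrast, the mean of 3, 5 and 7 days minus the mean of 1 to 24 h, leaves out the untreated mean. It sets 12 late arrays against 20 early ones. The spread of a gene was pooled over all groups although the late arrays were wider, so p-values may understate the late error. Time cannot be told apart there from other differences between the late and the early arrays. That contrast gave the most calls.

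In that contrast 14 of the 40 translation factor genes tested differed, 11 lower and 3 higher at the late times. Of all genes tested, 7.61% were called. The genes of elongation and of the eIF3 scaffold accounted for 9 of the 11 that fell: Eef1b2, Eif5a, Eef2, Eef1a1 and Eef1d, and Eif3c, Eif3h, Eif3m and Eif3a. Eif4a1 and Eif4e2 also fell, while Eif1a, Eif4a2 and Eif2d rose. Falls and rises in this contrast are relative to the early times, not to untreated cells. The median difference of the 40 genes was -0.057, against -0.003 over all 8317 genes tested.

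**Figure D1:**
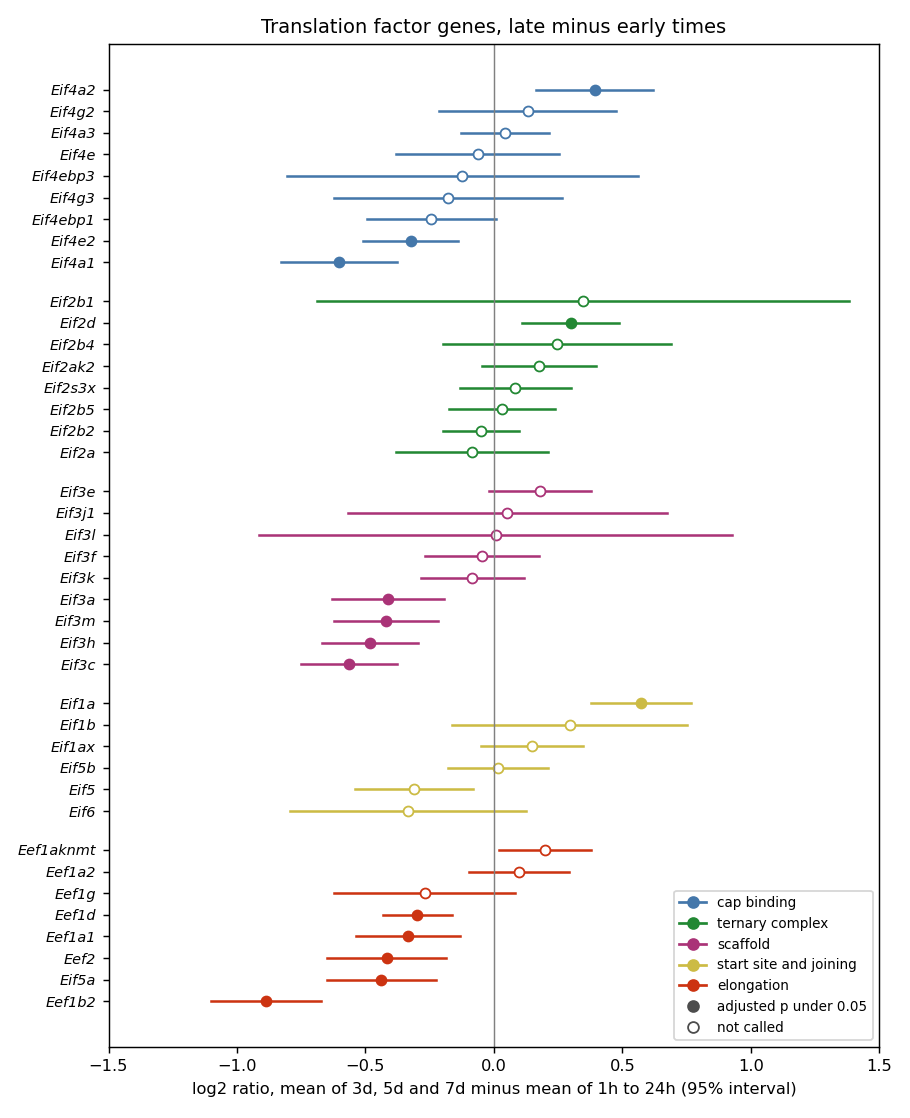
Difference in log2 ratio between the late times (mean of 3, 5 and 7 days) and the early times (mean of 1 to 24 h) for the 40 translation factor genes tested, in blocks by role, with 95% intervals from limma. Filled points passed an adjusted p under 0.05: the 14 called genes run from -0.89 for Eef1b2 to 0.57 for Eif1a.

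These calls depend on the turning of the Cy3 arrays. Without it, 1 translation factor gene was called in this contrast, Eif3k (-0.27, adjusted p = 0.0326), which was not among the 14. The differences of the 14 then ran from -0.34 for Eef1b2 to 0.16 for Eif1a, and those of Eif3h, Eif5a, Eif4a2 and Eif2d turned to the other sign (0.07, 0.03, -0.29 and -0.03). Within the turned data all 14 called genes differed in the same direction in the Cy5 arrays and in the Cy3 arrays taken alone, as did 631 of the 633 genes called in all. A call favours that outcome. Over all genes tested, called or not, only 47.4% had the same sign in both dyes, and over the 40 translation factor genes 67.5% did. With the 5 and 7 day values left in their deposited rows 4 were called, of which Eef1b2, Eif1a and Eif3c were among the 14. Without centring of the arrays 6 of the 14 kept their call (Eef1b2, Eif1a, Eif3c, Eif3h, Eif4a1 and Eif5a), and under quantile normalization 9. The differences themselves shifted alike without centring, as in Eef1a1 (-0.35 against -0.33), Eef2 (-0.44 against -0.42) and Eif4a2 (0.37 against 0.39). An array's offset is shared by all its genes, so that shift says nothing about single genes. Leaving out replicate 1, 2, 3 or 4 of every group left 8, 7, 9 or 11 calls, and Eef1b2, Eif1a, Eif3c, Eif3h and Eif4a1 were called each time. Shares of all genes called with settings changed or arrays left out are not given here, so these counts cannot be set against all genes.

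Sequence near the start of transcription is shown for the genes that fell, because Myc family and ETS family factors, which act downstream of growth factor signalling, recognise known short motifs there. RefSeq promoter windows of 300 bases around annotated starts, build GRCm38.p6, were matched for 32 of the 44 genes by gene identifier, and for 9 of the 11 that fell. They were searched on both strands for the E-box CACGTG, which reads the same on either strand, and for the ETS-type motif CCGGAAGT. In the windows shown no match of one overlapped a match of the other. The stretches of 30 bases below run 5′ to 3′ on the strand of the gene, and the capitals mark the motif.
Eef2 E-box, chr10:81176576-81176605, plus strand: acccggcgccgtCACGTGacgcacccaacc
Eif4a1 E-box, chr11:69672595-69672624, minus strand: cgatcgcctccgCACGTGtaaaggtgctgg
Eif5a E-box, chr11:69921443-69921472, minus strand: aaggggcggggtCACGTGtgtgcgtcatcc
Eif3a E-box, chr19:60790654-60790683, minus strand: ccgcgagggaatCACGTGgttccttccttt
Eef1b2 ETS-type, chr1:63176821-63176850, plus strand: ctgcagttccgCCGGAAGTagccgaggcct
Eif4e2 ETS-type, chr1:87213905-87213934, plus strand: tcgccagccaaCCGGAAGTagccgggccct
Eif5a ETS-type, chr11:69920667-69920696, minus strand: cagccgtagcaCCGGAAGTgttccccattg
The E-box was present in 4 of the 9 genes that fell (Eef2, Eif3a, Eif4a1 and Eif5a) and in 5 of the 23 other translation factor genes of the table, among them Eif4e. Of all 27025 genes of the table, 8.09% held it in at least 1 window. The ETS-type motif was present in 3 of the 9 genes that fell and in 3 of the 23 others, against 4.31% of all genes. Eif5a held the E-box at 2 places, of which 1 is shown. These matches describe the letters in the windows, and no binding was measured here.

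Among the elongation genes, Eef1b2, which encodes a nucleotide exchange subunit for eEF1A, had the largest difference of the 14 called genes with the Cy3 arrays turned. Not turned, it differed by -0.34 (adjusted p = 0.312), close to Eef2 at -0.33, and ranked 6 by size among the 40 genes. Its late values ran from -1.35 to 0.15 with a median of -0.79, and its early values from -0.19 to 0.51 with a median of 0.13. All but 1 of the 12 late arrays lay below 0 and below the early median, and the ranges overlapped only through 3 day arrays. At 5 days the 4 arrays read -1.02, -1.35, -0.66 and -0.86, and at 7 days -0.72, -0.90, -0.44 and -0.55. At 3 days the Cy5 arrays read -1.30 and -1.13 and the Cy3 arrays -0.02 and 0.15, so the dyes disagreed there. Eef1b2 was 1.85-fold lower late than early (log2 difference -0.89, SE 0.11, adjusted p = 4.28e-07), by 1.23 in the Cy5 arrays and 0.55 in the Cy3 arrays on the log2 scale, and it stayed called without any single array.

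Eef1a1, the abundant form of eEF1A, had late values from -0.71 to 0.67 with a median of -0.60, and early values from -0.57 to 0.25 with a median of -0.05. At 5 days the arrays read -0.69, -0.61, -0.69 and -0.48, and at 7 days -0.52, -0.59, -0.71 and -0.48, all below every array of 2, 4, 12 and 24 h, whereas 3d replicates 3 and 4, both Cy3, were at 0.24 and 0.67. The 1 h arrays were also low, from -0.57 to -0.26. The late difference was -0.33 (SE 0.10, adjusted p = 0.0331), and both probes were lower, at -0.40 and -0.27. This call was lost without any 1 of 7 arrays (1h replicate 1, 2h replicate 1, 4h replicate 2, 3d replicates 1 and 2, 5d replicate 3 and 7d replicate 3), with an adjusted p of up to 0.064, and under quantile normalization (adjusted p = 0.241).

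Eef1d, another exchange subunit, had the narrowest spread between arrays of a group among the 44 genes, a pooled SD of 0.136. At 5 days it read -0.39, -0.32, -0.62 and -0.48, and at 7 days 0.10, 0.14, -0.09 and 0.02, back among the early arrays, which ran from -0.21 to 0.28. Its late difference was -0.30 (SE 0.07, adjusted p = 0.00307), while its 3 probes ranged from -0.56 to 0.07 and did not share a sign. Eef1g, the structural subunit of the same complex, had a difference of -0.27 (95% interval -0.62 to 0.08) and was not called.

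Eef2, the translocase, read -1.02, -1.35, -0.39 and 0.06 at 5 days and -0.61, -0.62, -0.37 and -0.33 at 7 days. Its early arrays ran from -0.48 to 0.37 with a median of -0.07. The late difference of -0.42 (SE 0.11, adjusted p = 0.0181) had the same sign in all 4 probes, from -1.01 to -0.20. It was carried mostly by the Cy5 arrays, with -0.74 against -0.09 in the Cy3 arrays, and it missed the threshold under quantile normalization (adjusted p = 0.0757).

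Eif5a, the only protein known to carry the modified lysine hypusine, was above 0 in all 20 early arrays, from 0.01 to 0.82, and below 0 in 9 of the 12 late ones, with a late median of -0.26. It was highest at 2 h, with a mean of 0.45 ± 0.28 (SD, n = 4), and lowest at 5 days, with -0.49 ± 0.22 (SD, n = 4), and 7d replicate 1 stood high at 1.01. The late difference was -0.44 (SE 0.10, adjusted p = 0.006), but its probes disagreed, at -0.96 and 0.09. In fits of 1 time and the untreated arrays, Eif5a differed from untreated by -0.269 at 3 days, -0.465 at 5 days and 0.192 at 7 days, none called. Eef1a2, the form of eEF1A known from muscle and neurons, differed by 0.10 (95% interval -0.10 to 0.29), and the methyltransferase Eef1aknmt by 0.20 (adjusted p = 0.202). In all, 5 of 8 elongation genes tested were called, all lower, against 7.61% of all genes called, with a median of -0.32. Eef1akmt1 was not tested for lack of values and had the widest spread of the 44 genes, a pooled SD of 1.99.

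**Figure D2:**
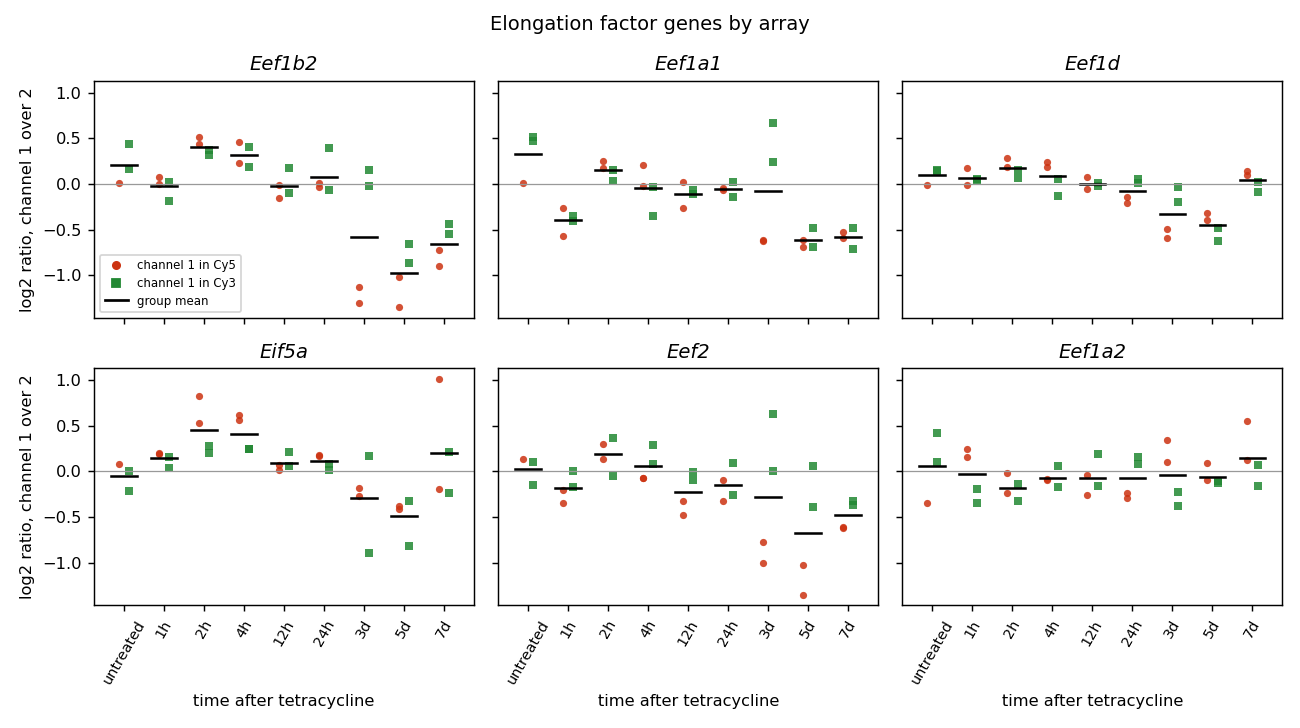
Log2 ratio of channel 1 over channel 2 on each array for 6 elongation genes, by group, with Cy5 arrays as red circles, Cy3 arrays as green squares and the group mean as a black bar. Eef1b2 falls to a mean of -0.97 at 5 days, the dyes separate at 3 days in Eef1b2, Eef1a1 and Eef2, and Eef1a2 stays near 0.

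In the eIF3 scaffold, 4 of 9 genes tested were called lower late, and none higher, against 7.61% of all genes called. Eif3c, a core subunit, was below 0 on all 12 late arrays, which ran from -1.0 to -0.02, with a median of -0.43. Its early arrays ran from -0.33 to 0.74 and were highest at 2 h, where they read 0.63, 0.66, 0.62 and 0.39. The late difference of -0.56 (SE 0.09, adjusted p = 5.72e-05) was close in the dyes, -0.65 in Cy5 and -0.48 in Cy3, and it held without any single array.

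Eif3h, another subunit of the complex, had its lowest values at 5 and 7 days. It read -0.68, -0.37, -0.72 and -1.31 at 5 days, and -0.74, -0.90, -0.75 and -0.92 at 7 days. At 3 days it read -0.38, -0.34, 0.12 and 0.39, within the early range of -0.52 to 0.30 or above it. The 7 day arrays all lay below every early array. Its late difference was -0.48 (SE 0.09, adjusted p = 0.00051).

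Eif3m, a subunit of the same module as Eif3h, was below 0 on all 12 late arrays (median -0.46, early median -0.07) and differed by -0.42 (SE 0.10, adjusted p = 0.00555). Under quantile normalization it missed the threshold (adjusted p = 0.23). Eif3a, the largest scaffold subunit, differed by -0.41 (SE 0.11, adjusted p = 0.0135), more in Cy5 (-0.71) than in Cy3 (-0.12). When values above the ceiling were kept, the difference of Eif3a was larger, at -1.07, and its call was lost (adjusted p = 0.198). The other tested subunits were not called: Eif3e at 0.18, Eif3f at -0.05, Eif3k at -0.08, Eif3l at 0.01 and Eif3j1 at 0.05. Eif3b and Eif3i had too few values for this contrast.

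The cap-binding group split. Eif4a1 encodes the main helicase of eIF4F. It read 0.52, 0.78, 0.65 and 0.45 at 1 h, 0.79, 0.95, 0.79 and 0.96 at 2 h and 0.79, 0.74, 0.80 and 0.53 at 4 h, and all 12 of these arrays lay above every array of 12 and 24 h, which ran from -0.48 to 0.31. At 5 days it read -0.31, -1.03, -0.29 and -0.55, and at 7 days 0.21, 0.19, -0.19 and -0.07. The late difference was -0.60, or 1.52-fold lower (SE 0.11, adjusted p = 0.000315), with -0.66 in Cy5 and -0.55 in Cy3. It was measured from the high values of 1 to 4 h. In fits of 1 time and the untreated arrays, Eif4a1 differed from untreated by 0.335 at 3 days, -0.269 at 5 days and 0.254 at 7 days, none called.

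Its close paralog Eif4a2 went the other way. Its early arrays ran from -0.34 to 0.40 with a median of 0.02. At 5 days it read 0.42, 0.40, 0.29 and 0.43, and at 7 days 0.26, 0.55, 0.71 and 0.99, while the 3 day arrays read -0.22 and -0.67 in Cy5 and 0.99 and 0.90 in Cy3. The late difference was 0.39 (SE 0.11, adjusted p = 0.0248), with 0.10 in Cy5 and 0.68 in Cy3. It lost its call without 3d replicate 4 (adjusted p = 0.051) and under quantile normalization (adjusted p = 0.082). cDNA probes of such close copies may bind both transcripts, which was not tested. Eif4e2, a homolog of the cap-binding protein, differed by -0.32 (SE 0.09, adjusted p = 0.022), with -0.55 in Cy5 and -0.10 in Cy3.

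Eif4e itself, the cap-binding protein that limits eIF4F, was not called in any comparison on the mean of its 4 probes. Its late difference was -0.06 (95% interval -0.38 to 0.25), and its group means ran from -0.25 at 1 h to 0.52 at 4 h. With probes tested singly, 2 of its probes passed the F-test over all times (adjusted p = 0.0115 and 0.0369), against 6.25% of all probes. Their late differences were -0.27 and -0.24, not called. Its inhibitor Eif4ebp1 differed by -0.24 (95% interval -0.50 to 0.01, adjusted p = 0.293) on the mean of its 2 probes. The 1 probe with enough values to be tested singly was lower (-0.47, adjusted p = 0.016), against 8.4% of all probes called in that contrast. The exon junction helicase Eif4a3 and the scaffolds Eif4g2 and Eif4g3 were at 0.04, 0.13 and -0.18 and were not called. Of the 9 genes of this group 3 were called, 1 higher and 2 lower, against 7.61% of all genes.

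Eif1a, which encodes a form of eIF1A and acts in scanning and start codon recognition, had the largest rise among the called genes with the Cy3 arrays turned. Not turned, it differed by 0.16 (adjusted p = 0.647). Its late arrays ran from -0.14 to 1.03 with a median of 0.50, and none lay below the early median of -0.21. The early arrays ran from -0.91 to 0.74. They were high at 2 h, with 0.74, 0.23, 0.48 and 0.67, and low at 12 h, with -0.30, -0.47, -0.61 and -0.91. At 5 days Eif1a read 0.66, 1.03, 0.38 and 0.72. The late difference was 0.57, or 1.49-fold higher (SE 0.09, adjusted p = 8.21e-05), with 0.74 in Cy5 and 0.41 in Cy3, and it held without any single array. Its X-linked relative Eif1ax was at 0.15 (95% interval -0.05 to 0.35). Eif5, the GTPase-activating factor, was at -0.31 (adjusted p = 0.0931), Eif6 at -0.33 (adjusted p = 0.459), Eif1b at 0.29 and the subunit-joining factor Eif5b at 0.02, and none of these was called on the mean of its probes. Tested singly, 1 probe of Eif5 (-0.44, adjusted p = 0.0118) and 1 of Eif6 (-0.37, adjusted p = 0.0167) were lower, against 8.4% of all probes called. The other probe of Eif5 was at -0.19 and not called, and the other of Eif6 had too few values to be tested.

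In the ternary complex group 1 of 8 genes was called, against 7.61% of all genes. Eif2d, a factor that can deliver initiator tRNA without eIF2, read 0.62, 0.84, 0.50 and 0.72 at 5 days, above all 20 early arrays, whose highest was 0.42. At 3 and 7 days it ran from -0.56 to 0.42, close to the early range of -0.54 to 0.42. Its late difference was 0.30 (SE 0.09, adjusted p = 0.0428), and the call was kept in 11 of the 32 fits that each left out 1 array, the rest reaching an adjusted p of up to 0.084. The double-stranded RNA kinase Eif2ak2 was at 0.17 (95% interval -0.05 to 0.40), the ternary complex subunit Eif2s3x at 0.08, and the exchange factor subunits Eif2b1, Eif2b2, Eif2b4 and Eif2b5 between -0.05 and 0.35, none called.

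**Figure D3:**
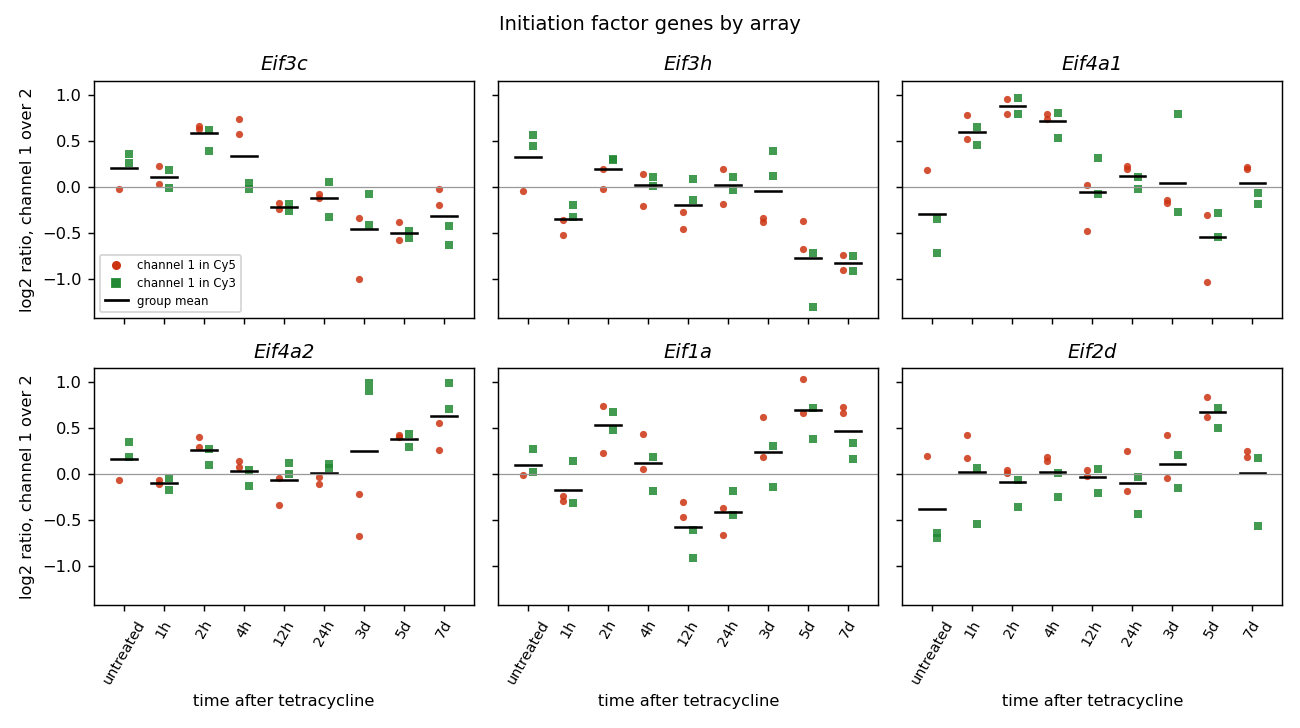
Log2 ratio of channel 1 over channel 2 on each array for 6 initiation genes, by group, with Cy5 arrays as red circles, Cy3 arrays as green squares and the group mean as a black bar. Eif4a1 peaks at a mean of 0.87 at 2 h, Eif3h falls to -0.83 at 7 days, and Eif4a2 and Eif1a end above 0.

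The late times taken singly against the early mean did not contribute equally. The 3 days alone gave 5 calls among 41 genes tested, against 5.28% of all genes (Eef1b2, Eef1d, Eif3c, Eif3m and Eif5a, all lower). The 5 days alone gave 12 of 40, against 5.75%, and the 7 days alone 5 of 40, against 5.1% (Eef1b2, Eif3c and Eif3h lower, Eif1a and Eif4a2 higher). Eef1b2 and Eif3c were called at each of them. At 5 days Eef1b2 differed by -1.13, Eif4a1 by -0.99 and Eif1a by 0.80.

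The median over the 44 genes was also read on each array. It lay between 0.12 and 0.25 on the 4 arrays of 2 h and between 0.06 and 0.15 at 4 h, while the 5 day arrays ran from -0.21 to -0.12. The 7 day arrays ran from -0.05 to 0.04, and the 3 untreated arrays from -0.01 to 0.19. The spread between arrays of a group was smaller for these genes than for most, with a median pooled SD of 0.292 over the 44, against 0.484 over 9784 genes.

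**Figure D4:**
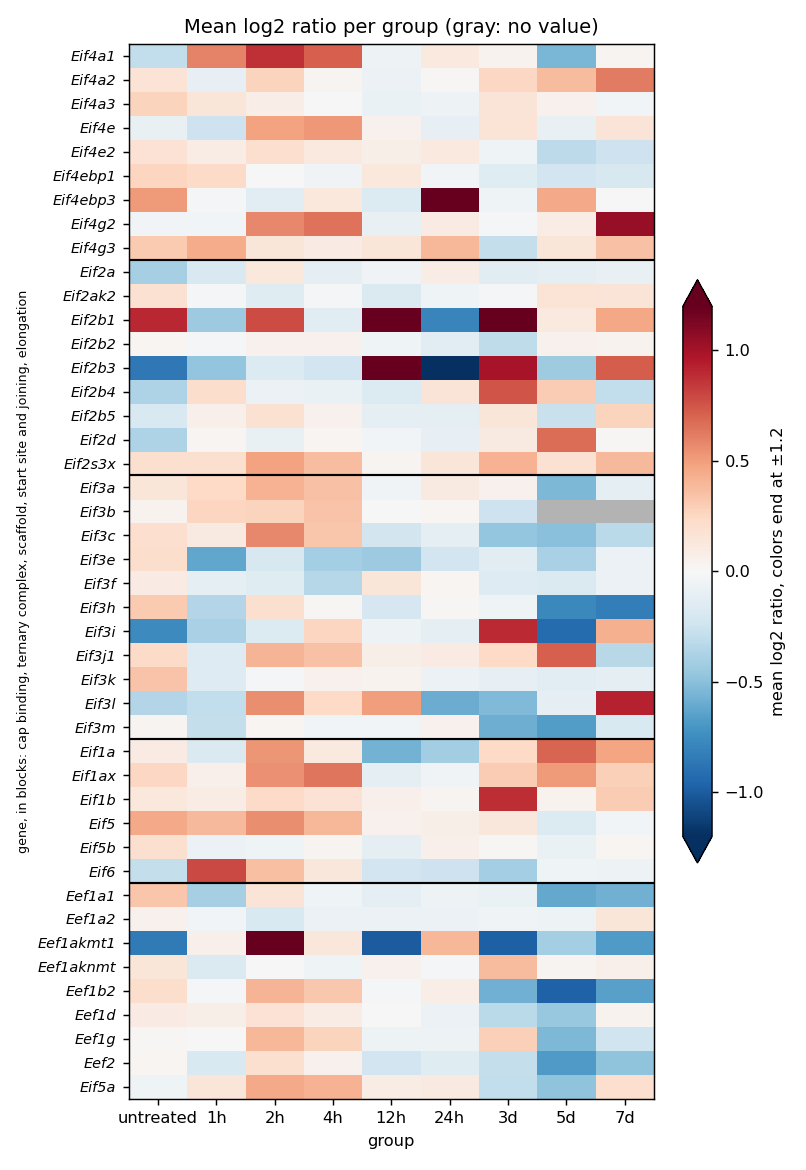
Mean log2 ratio of each of the 44 translation factor genes in each group, with the genes in blocks by role and gray where no value was left. Red marks means above 0 and blue means below 0, and the colors end at 1.2 units either side of 0. Eef1b2, Eef1a1, Eif3h and Eif3m are blue at 5 days, where Eif2d and Eif1a are red. Eef1b2 and Eif3m are already blue at 3 days, and Eef1a1 at 1 h.

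Against the untreated arrays fewer translation factor genes were called, and each call rests on the turning of the Cy3 arrays and on the spread pooled over all groups. Fits restricted to 1 time and the untreated arrays called none in limma at any time, with 7, 9 and 6 genes at an unadjusted p under 0.05 at 2 h, 5 days and 7 days. The share of all genes at that level was not counted in those fits. At 1 h 0 of 42 tested were called, against 0.25% of all genes. An unadjusted p under 0.05 was found for 6 (14.3%), against 5.17% of all genes. The closest was Eif3e, an eIF3 subunit, whose arrays read -0.60, -0.69, -0.69 and -0.50, against -0.20 in Cy5 and 0.38 and 0.46 in Cy3 untreated (difference -0.85, SE 0.20, adjusted p = 0.09). Eif3e was below 0 on all 20 early arrays.

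At 2 h 1 of 42 was called, Eif4a1, against 0.527% of all genes. Its untreated arrays read 0.18, -0.35 and -0.72, and the difference was 1.17 (SE 0.23, adjusted p = 0.0117), or 2.25-fold, by 0.70 within Cy5 and 1.41 within Cy3. Not turned, the sign was the opposite (-0.48, adjusted p = 0.768), and in the fit of these groups alone the difference was 1.12 (adjusted p = 0.222). Without untreated replicate 3 or untreated replicate 4 the call was lost (adjusted p of up to 0.12). At 4 h 0 of 42 were called, against 0.257% of all genes. At an unadjusted p under 0.05 were 2 (4.76%), near the 4.26% of all genes. Eif4a1 came closest again, at 1.01 (adjusted p = 0.0571). At 12 h 0 of 42 and at 24 h 0 of 40 were called, against 0.0218% and 0.0219% of all genes. An unadjusted p under 0.05 was reached by 4 (9.52%) and 3 (7.5%), against 4.35% and 4.52% of all genes. Eif1a was lowest then, at -0.69 and -0.53. At 3 days 0 of 42 were called, against 0.569% of all genes. There 9 (21.4%) had an unadjusted p under 0.05, against 12.2% of all genes. Without untreated replicate 1, which stands for replicates 1 and 2, 3 translation factor genes passed at 1 h and 3 at 3 days. The share of all genes passing in that fit is not given here.

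At 5 days 5 of 41 were called, against 1.62% of all genes. Eef1b2 was 2.2-fold lower (difference -1.14, SE 0.22, adjusted p = 0.00371), with untreated arrays at 0.01, 0.17 and 0.44. Eif3h was 2.09-fold lower (-1.06, SE 0.19, adjusted p = 0.0018), with untreated arrays at -0.05, 0.56 and 0.44. Eef1a1 (-0.93, adjusted p = 0.0134) and Eef1d (-0.55, adjusted p = 0.031) were lower too, and Eif2d was higher (0.99, adjusted p = 0.0038). The untreated arrays of Eif2d read 0.20 in Cy5 and -0.64 and -0.69 in Cy3, and its call was lost without untreated replicate 4 (adjusted p = 0.052). Eef1a1 lost its call without untreated replicate 3 or 4, and Eef1d without either of these or 5d replicate 3 or 4. The count of 5 became 9 without untreated replicate 1, 3 without untreated replicate 3 and 2 without untreated replicate 4. Shares of all genes called in those fits are not given here. Without turning none was called and all 5 signs were the opposite, at 0.66 for Eif3h, 0.036 for Eef1b2, 0.35 for Eef1a1, 0.22 for Eef1d and -0.46 for Eif2d. With the values in their deposited rows none was called either, and Eif3h (0.09), Eef1d (0.02) and Eif2d (-0.91) changed sign. In the fit of these groups alone the differences were close to those above, from -1.12 for Eef1b2 to 0.97 for Eif2d, but the adjusted p was 0.274 or more.

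At 7 days 2 of 41 were called, against 1.14% of all genes. Eif3h was 2.18-fold lower (-1.12, SE 0.19, adjusted p = 0.00154) and kept its call without any single array. Eef1a1 was 1.85-fold lower (-0.89, SE 0.21, adjusted p = 0.0235), a call lost without untreated replicate 3, untreated replicate 4 or 7d replicate 3, each of which left 1 gene called. Eef1b2 missed the threshold there (-0.82, adjusted p = 0.0656). Not turned, Eif3h (0.43) and Eef1a1 (0.41) had the opposite sign and were not called. In the fit of these groups alone they differed by -1.11 and -0.88 (adjusted p = 0.697 and 0.751).

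A moderated F-test over the 8 comparisons called 9 of 39 translation factor genes, against 5.22% of all genes: Eif1a, Eef1b2, Eif4a1, Eif3h, Eif3c, Eef1d, Eef1a1, Eif5a and Eif2d. The adjusted p ran from 5.6e-05 for Eif1a to 0.0398 for Eif2d. Not turned, Eif3k alone was called (adjusted p = 0.0182).

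Of the genes whose mRNAs are known to begin with a terminal oligopyrimidine tract, 8 were measured: Eef1a1, Eef1b2, Eef1d, Eef1g, Eef2, Eif3e, Eif3f and Eif3h. This list was chosen with earlier results of these data known. Its Eef genes are also elongation genes described above, so the lists overlap and their calls are not separate results. In the late minus early contrast 5 of the 8 were called lower and none higher, against 7.61% of all genes called, with a median of -0.32. Of the 32 other genes tested, 6 were lower and 3 higher, with a median of 0.01. Within eIF3 the list did not divide the genes. Eif3h was called lower, but Eif3e and Eif3f on the list were not called. Eif3a, Eif3c and Eif3m, not on the list, were called lower. At 5 days against untreated all 8 had a negative difference, while 52.8% of all genes had a positive one. Of the 8, 4 were called, against 1.62% of all genes. Their median was -0.63, against -0.04 for the 33 others. At 7 days all 8 were again negative, while 51.5% of all genes were positive. Of the 8, 2 were called, against 1.14% of all genes, with a median of -0.37. The directions against untreated hold only with the Cy3 arrays turned. Not turned, 5 of the 8 were positive at 5 days (median 0.13) and 7 at 7 days (median 0.16), where Eif3e was called higher (0.78, adjusted p = 0.0281), and the late minus early median was -0.20 with none called. These arrays measured total RNA, not translation.

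Genes that work beside the factors were read from a list of 61 names, of which 48 were measured. In the late minus early contrast 5 of 41 tested were called, against 7.61% of all genes. Pabpc1, the main cytoplasmic poly(A)-binding protein, which joins the mRNA tail to eIF4G, fell by 0.91 (SE 0.11, adjusted p = 5.71e-07). Its mRNA is known to carry a terminal oligopyrimidine tract as well. Part of this fall was measured from high early values. Pabpc1 had group means of 0.73 at 2 h and 0.48 at 4 h, against 0.02 untreated, -0.44 at 5 days and -0.74 at 7 days. It was not called against untreated at any single time. Among 13 aminoacyl-tRNA synthetases tested Iars (-0.57, adjusted p = 0.000398), Cars (-0.38) and Rars (-0.34) fell. Of the 13, 12 had a negative difference, with a median of -0.34, while 49.5% of all genes had a positive one. Pdcd4, an inhibitor of the eIF4A helicase that S6 kinase marks for degradation, rose by 0.34 (SE 0.09, adjusted p = 0.0181) and was the only called gene of 11 in mTOR, MNK and S6 kinase signalling. None of 5 integrated stress response genes, 5 mitochondrial translation factors or 4 termination and recycling factors was called, with medians of 0.14, -0.21 and -0.07. At 7 days against untreated Iars alone of these genes was called (-1.10, adjusted p = 0.00843). Whether the calls of these related genes hold without turning, or with arrays left out, was not examined.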

How the data were processed

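The authors deposited log2 ratios of the 2 channels for 36 dual-colour cDNA arrays; the software, background correction, normalization and numerator are not given in the sources used here. Values at the ceiling (above 12, 2807 in all) were dropped, arrays were centred on their median and Cy3 arrays were multiplied by -1. At 5 and 7 days values were moved back to their probe rows, and 90 rows at the steps were left out. Before that, 5d replicate 1 was moved by 1 row over its whole length, the lag that best matched the arrays of other times. That lag was 0 for the other arrays of 5 and 7 days. Placement was checked on the 2 h and 3 day arrays after rows had been dropped from them at known places. The tests were checked on simulated arrays with the same spread per gene in every group, so the wider late arrays were not covered. Of the annotated probes 14030 had 1 symbol and 5 several, and 6320 rows were unnamed. Probes of a gene were averaged. limma 3.58.1 in R 4.3.3 (lmFit, eBayes) was run on genes with 3 or more values in every group of a comparison. Members, role groups and lists were chosen with earlier results of these data known. Genes named were every called member, the 3 smallest adjusted p in each comparison, a list by role (Eif4g1, Eif4b, Eif2s1, Eif2ak3, Eif2ak4, Eif1 and Eef2k were not analysed here) and the widest and narrowest spread. Alternatives changed the turning, centring, normalization, dye term, weights, ceiling, probe summary, filter, row placement, reference and arrays. Intervals are 95% intervals of the model.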

Additional observations from a re-analysis of the deposited data

Results flagged for a closer look

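The late times differed from the early times, by the limma contrast itself, in 14 translation factor genes. The log2 differences were -0.89 for Eef1b2, -0.60 for Eif4a1, -0.56 for Eif3c, -0.48 for Eif3h, -0.44 for Eif5a, -0.42 for Eif3m, -0.42 for Eef2, -0.41 for Eif3a, -0.33 for Eef1a1, -0.32 for Eif4e2 and -0.30 for Eef1d. They were 0.57 for Eif1a, 0.39 for Eif4a2 and 0.30 for Eif2d.

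Eif4ebp3 at 24 h had 1 array far from the rest: replicate 1 read 4.99, while replicates 2, 3 and 4 read 0.23, 0.16 and 0.45. Its gap to the nearest array was 0.94 of the range, and no other of the 26 groups of 4 arrays examined was set apart. Only genes named in a comparison with untreated were examined, not all 44 at every time. Eif4ebp3 at 24 h was named for a difference of 0.940, which was -0.23 without this array, so no chance rate applies.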

How the results depend on the processing

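Counts of called translation factor genes run in the order 1, 2, 4, 12 and 24 h, 3, 5 and 7 days against untreated, then any time, then late minus early, and were 0, 1, 0, 0, 0, 0, 5, 2, 9 and 14. They were 1, 1, 1, 1, 1, 6, 0, 1, 1 and 1 with values not turned; 0, 0, 0, 0, 0, 0, 2, 1, 4 and 6 not centred; 4, 1, 2, 0, 0, 0, 3, 2, 11 and 10 under quantile normalization; 2, 1, 0, 0, 0, 2, 9, 4, 13 and 15 with a dye effect for each group; 5, 5, 5, 7, 4, 1, 9, 4, 16 and 12 with array weights; and 0, 0, 0, 0, 0, 0, 0, 0, 2 and 4 with rows as deposited. Against 0 the 8 times gave 1, 5, 2, 1, 0, 4, 13 and 6. Fits restricted to 1 time and the untreated arrays called 0 in limma at each time, with 5, 7, 6, 4, 2, 0, 9 and 6 at an unadjusted p under 0.05. The share of all genes at that level was not counted there. Without a minimum of values 4 h gave 1, and probes tested singly gave 2 genes at 2 h. Against the early mean, 3 days alone gave 5 and 7 days alone 5, alternatives chosen after seeing the data, as were single arrays left out of the last contrasts. Keeping the ceiling values, the median over probes and both copies of the untreated array kept every count within 1.5 times. The cause of these changes was not tested. Shares of all genes called under these settings, or with arrays left out, are not given here. The counts therefore do not show a change particular to the translation factor genes.

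Leaving out arrays gave 0 to 3 calls at 1 h, 0 to 1 at 2 h, 0 to 2 at 4 h, 0 to 1 at 12 h, 0 to 1 at 24 h, 0 to 3 at 3 days, 2 to 9 at 5 days, 1 to 3 at 7 days, 5 to 13 at any time and 7 to 15 late minus early. The lowest counts of the last contrasts came from leaving out 1 replicate number in every group.

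Not turned, signs reversed at 1 h for Eif3e (0.41), Eif4a1 (-0.43) and Eef1a1 (0.37); at 2 h for Eif4a1 (-0.48); at 4 h for Eif4a1 (-0.43), Eif3e (0.47) and Eif3i (-0.62); at 12 h for Eif1a (0.26), Eif3e (0.51) and Eif3h (0.25); at 24 h for Eif3e (0.53); at 3 days for Eif3c (0.021); at 5 days for Eif3h (0.66), Eef1b2 (0.036), Eif2d (-0.46), Eef1a1 (0.35) and Eef1d (0.22); at 7 days for Eif3h (0.43), Eef1a1 (0.41) and Eef1b2 (0.093); and late minus early for Eif3h (0.066), Eif5a (0.033), Eif4a2 (-0.29) and Eif2d (-0.026). With rows as deposited they reversed at 5 days for Eif3h (0.09), Eif2d (-0.91) and Eef1d (0.02), and late minus early for Eif4a2 (-0.009) and Eif2d (-0.38). Eif4ebp3 at 24 h ran from -0.229, without 24h replicate 1, to 1.401 when single arrays were left out.

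Replicate numbers did not pair the arrays: same-numbered arrays of different groups correlated at -0.172 to 0.146 in their deviations, and 17 of 35 correlated best with their own number. The replicate block gave counts of 0, 1, 0, 0, 0, 0, 5, 2, 8 and 13.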
